A study of Homo sapiens with 12 samples.

Results

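A set of 10 genes of amino acid and stress metabolism were followed in cardiomyocyte cultures made from the human embryonic stem cell line H1. They were PCK2 and 9 genes known as targets of the transcription factor ATF4, namely ASNS, PSAT1, PHGDH, PSPH, SHMT2, MTHFD2, TRIB3, SLC7A11 and CHAC1. The 10 genes were taken by their gene symbols from a table of 61806 genes. PCK2 was chosen by its lower level in passaged cells, so in comparisons of passaged with static cells its values are a description without a test, and counts are over the other 9 genes. The question was whether these 9 genes were lower where PCK2 was lower.

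ATF4 is translated when cells are short of amino acids or hold misfolded proteins, and it activates genes that import and make amino acids. PHGDH, PSAT1 and PSPH catalyze the successive steps of serine synthesis from a glycolytic intermediate. SHMT2 and MTHFD2 then pass a carbon unit from serine to folate in mitochondria. PCK2 is the mitochondrial enzyme that turns oxaloacetate into phosphoenolpyruvate, which can supply carbon for serine synthesis.

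The libraries came from wild-type H1 cells under 3 treatments, taken on Day 12 or on Day 16, with 2 libraries per treatment and day. NP-IWP2 cells were differentiated in static culture with IWP2, an inhibitor of WNT secretion, and were not passaged. P-DF denotes passaging on Day 2 followed by DF medium without IWP2, and P-IWP2 denotes the same passaging with IWP2. The labels name no separate cultures, so p-values measure the spread between these libraries only, which may be technical. The 2 passaged treatments were each compared with the same NP-IWP2 libraries, and the control without passaging also received IWP2, so P-DF and NP-IWP2 differ by both passaging and IWP2.

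Between 14885589 and 19176239 reads were counted per library, and mitochondrial genes took 6.97% to 15.8% of them. One library stood apart from its group, replicate 5 of P-IWP2 on Day 12. Its 8 fibroblast markers summed to 760 FPKM (reads scaled to exon length and to the reads counted in the library), against 44.6 FPKM in the other Day 12 P-IWP2 library. Its 11 cardiomyocyte markers summed to 2548 FPKM, the lowest of the 12 libraries. Some of the values and counts that moved when this library was left out are also given without it.

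ATF4 binds elements of the form TGATGNAA, so the promoters of the genes were searched for these letters on both strands. RefSeq windows on GRCh38.p14 from 250 bases before to 50 bases after the start of the RefSeq entry were at hand for 7 of the 10 genes. The letters were found in 2 of the 7, ASNS and CHAC1, and in 3.62% of all 35116 windows. They were not found in the windows of PCK2, PHGDH, PSAT1, TRIB3 and MTHFD2, which says nothing of sites elsewhere. The 250 bases before that start are shown for PCK2, the gene the comparison is about, and for the 2 genes with a match, which is in capitals. PCK2 is at chr14:24094061-24094310 on the plus strand, ASNS at chr7:97872409-97872658 on the minus strand, and CHAC1 at chr15:40953221-40953470 on the plus strand. These RefSeq starts lie inside the gene models of the count table, so the stretches of PCK2 and CHAC1 lie wholly and that of ASNS partly within the models.
PCK2: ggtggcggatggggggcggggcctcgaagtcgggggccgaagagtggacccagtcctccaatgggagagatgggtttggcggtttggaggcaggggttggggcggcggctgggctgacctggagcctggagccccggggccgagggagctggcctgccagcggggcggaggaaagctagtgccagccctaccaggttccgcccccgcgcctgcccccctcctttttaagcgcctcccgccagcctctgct
ASNS: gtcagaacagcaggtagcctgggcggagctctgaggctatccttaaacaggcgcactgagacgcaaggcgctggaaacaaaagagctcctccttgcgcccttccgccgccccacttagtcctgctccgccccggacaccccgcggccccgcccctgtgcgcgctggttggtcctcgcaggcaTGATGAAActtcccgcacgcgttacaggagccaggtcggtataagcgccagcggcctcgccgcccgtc
CHAC1: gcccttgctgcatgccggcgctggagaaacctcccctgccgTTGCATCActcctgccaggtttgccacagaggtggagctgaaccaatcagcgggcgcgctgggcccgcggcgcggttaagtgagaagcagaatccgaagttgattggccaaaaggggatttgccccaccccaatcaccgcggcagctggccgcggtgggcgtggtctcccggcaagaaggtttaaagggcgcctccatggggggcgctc
The ASNS match, TGATGAAA, began 68 bases before the RefSeq start. The CHAC1 match, TTGCATCA, is on the opposite strand and began 209 bases before it.

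PCK2 was lower in passaged than in static cells on both days, the pattern by which it was chosen. PCK2 (ENSG00000100889, chr14:24094053-24110598 on GRCh38, plus strand) was at 2.16 and 2.09 FPKM in the static NP-IWP2 libraries of Day 12, 0.58 and 0.41 FPKM with P-DF, and 1.42 and 0.65 FPKM with P-IWP2. On Day 16 the static libraries had 2.38 and 1.82 FPKM, the P-DF libraries 0.33 and 0.35 FPKM, and the P-IWP2 libraries 0.46 and 0.42 FPKM. Each passaged library was thus below each static library of its day. Of the passaged libraries, Day 12 P-IWP2 replicate 5 was the nearest to the static ones. By group mean the order ran from NP-IWP2 on Day 12 and Day 16 through P-IWP2 and P-DF on Day 12 to P-IWP2 and P-DF on Day 16. In that order the 2 static groups overlapped with each other and Day 12 P-DF with Day 16 P-IWP2, and the other neighbours did not overlap. On the log2 scale, where 1 unit is a doubling, PCK2 differed from NP-IWP2 by -2.02 ± 0.34 (SE) with P-DF and -1.09 ± 0.33 with P-IWP2 on Day 12. On Day 16 these log2 differences were -2.41 ± 0.35 and -1.97 ± 0.34. Without Day 12 P-IWP2 replicate 5, the Day 12 difference in P-IWP2 cells was -1.61. Between 22 and 190 reads were counted on PCK2 per library, and up to 35 reads on NRL, which overlaps it on the other strand. In bulk RNA, fewer cells of a type and less RNA per cell cannot be told apart.

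**Figure D1:**
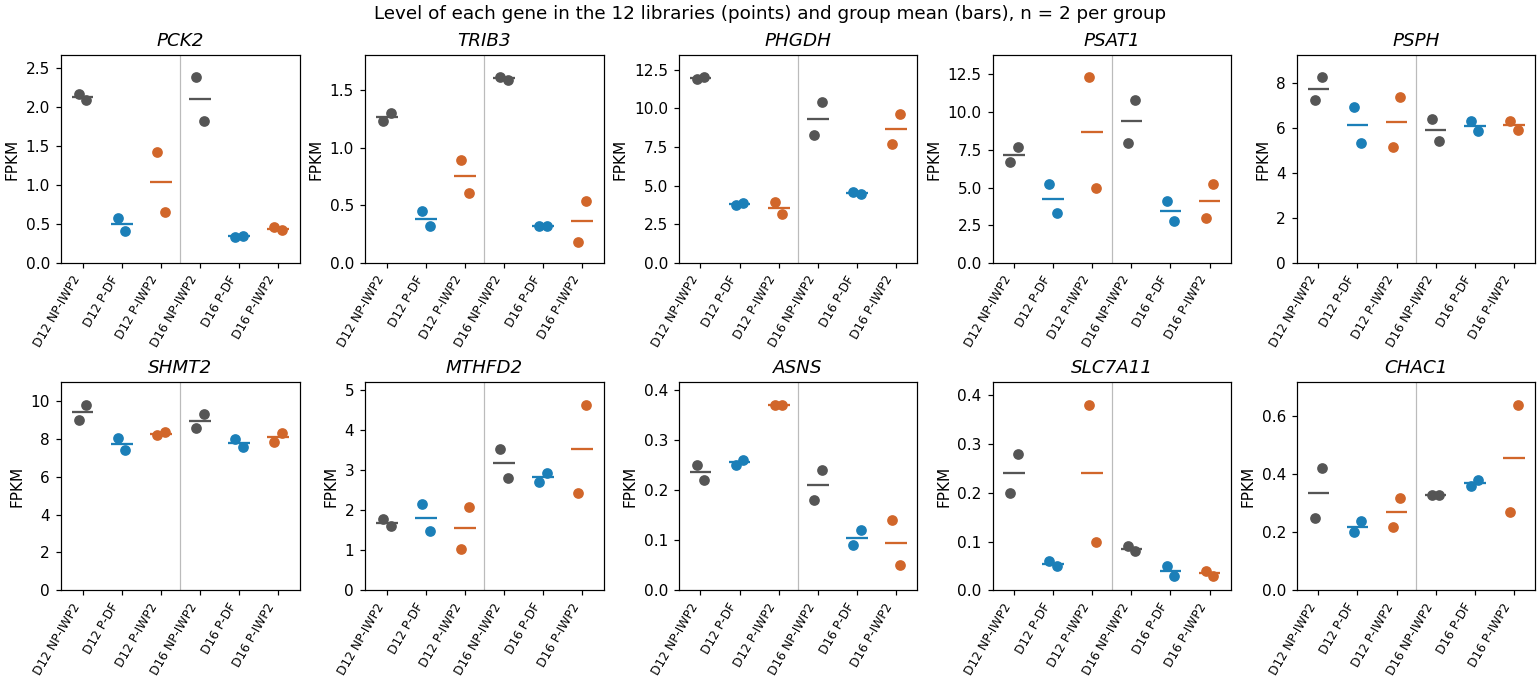
Level in FPKM of the 10 genes in each library (points), with the mean of each group of 2 libraries (bars), for Day 12 (D12) on the left and Day 16 (D16) on the right of each panel. PCK2, TRIB3 and, by a smaller margin, SHMT2 were lower in each passaged library than in the static libraries of its day. PSPH stayed between 5.16 and 8.27 FPKM.

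Over both days, 4 of the 9 other genes were lower with P-DF than in static NP-IWP2 cells and 0 were higher. They were TRIB3, PHGDH, PSAT1 and SLC7A11. With 5 to 8 reads per P-DF library, SLC7A11 passed the filter for low counts only through the static libraries. A call as higher was thus hardly possible for SLC7A11, and its call is not support for a shared fall. Of all 18871 genes tested, 19.8% were lower and 14.3% higher in this comparison, at a Benjamini-Hochberg adjusted p under 0.05 in edgeR's quasi-likelihood test. The median log2 difference of the 9 genes was -0.25, against -0.02 for all genes. On counts scaled by TMM factors, the same 4 genes had both P-DF libraries below both NP-IWP2 libraries on each day. This held for 21.4% of 19505 genes. In FPKM, which are not TMM-scaled, SHMT2 did so as well. It was at 8.02 and 7.41 against 9.01 and 9.8 FPKM in static libraries on Day 12. On Day 16 it was at 7.98 and 7.56 against 8.56 and 9.32 FPKM. All 4 calls held when each of the 8 libraries was left out in turn.

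TRIB3, a pseudokinase that restrains AKT and ATF4 activity, had the largest fall of the 9 genes in P-DF cells over both days. TRIB3 (ENSG00000101255, chr20:362835-397559, plus strand) was at 1.23 and 1.3 FPKM in static and 0.45 and 0.32 FPKM in P-DF libraries on Day 12, and at 1.61 and 1.59 FPKM against 0.32 in both P-DF libraries on Day 16. These levels did not overlap on either day. Over both days TRIB3 fell by 1.86 ± 0.21 on the log2 scale (adjusted p = 0.00015). The gene rests on 11 to 101 reads per library.

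PHGDH (ENSG00000092621, chr1:119648411-119744218, plus strand), the enzyme that opens serine synthesis, was at 11.9 and 12.0 FPKM in static and 3.72 and 3.87 FPKM in P-DF libraries on Day 12. On Day 16 the static libraries had 8.27 and 10.4 FPKM and the P-DF libraries 4.6 and 4.46 FPKM. The gap was wider on Day 12, and the libraries did not overlap on either day. Over both days PHGDH fell by 1.20 ± 0.14 on the log2 scale (adjusted p = 0.00023).

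PSAT1 (ENSG00000135069, chr9:78297125-78330093, plus strand), the aminotransferase of the next step, fell by 0.95 ± 0.20 on the log2 scale over both days in P-DF cells (adjusted p = 0.0053). It was at 6.7 and 7.67 FPKM in static and 5.21 and 3.32 FPKM in P-DF libraries on Day 12, and at 7.98 and 10.8 against 4.11 and 2.79 FPKM on Day 16. The highest PSAT1 level of the 12 libraries, 12.3 FPKM, was in Day 12 P-IWP2 replicate 5. SLC7A11 (ENSG00000151012, chr4:138164097-138242349, minus strand), which imports cystine in exchange for glutamate, fell by 1.61 ± 0.34 on the log2 scale in P-DF cells (adjusted p = 0.0052). It was near the limit of detection, with 0.2 and 0.28 FPKM in static and 0.06 and 0.05 FPKM in P-DF libraries on Day 12, and 0.03 to 0.09 FPKM in all libraries of Day 16. Only 5 to 57 reads per library were counted on SLC7A11.

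The other 5 genes did not pass the test in P-DF cells. SHMT2 was at 7.41 to 9.8 FPKM and PSPH at 5.16 to 8.27 FPKM over the 12 libraries, the narrowest relative ranges of the 10 genes. Their log2 differences over both days were -0.10 ± 0.08 (adjusted p = 0.37) and -0.01 ± 0.15 (adjusted p = 0.98). For SHMT2 the call depended on the scaling: with total counts in place of TMM factors the difference was -0.24 (adjusted p = 0.032). MTHFD2 differed by 0.11 ± 0.14 (adjusted p = 0.61), and by -0.04 with total counts. ASNS, which makes asparagine, differed by -0.25 ± 0.30 (adjusted p = 0.56), and CHAC1, which degrades glutathione, by -0.03 ± 0.34 (adjusted p = 0.96). With 5 to 30 reads per library on ASNS and 6 to 25 on CHAC1, differences of the size of these errors were not detectable. Genes that overlap ASNS held up to 150 reads in a library and genes that overlap MTHFD2 up to 73. The overlaps may affect the counts of both, which was not tested. Near-identical copies of PSAT1, PSPH, MTHFD2 and ASNS are listed in the table under pseudogene names, so reads that match a copy may affect their counts.

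**Figure D2:**
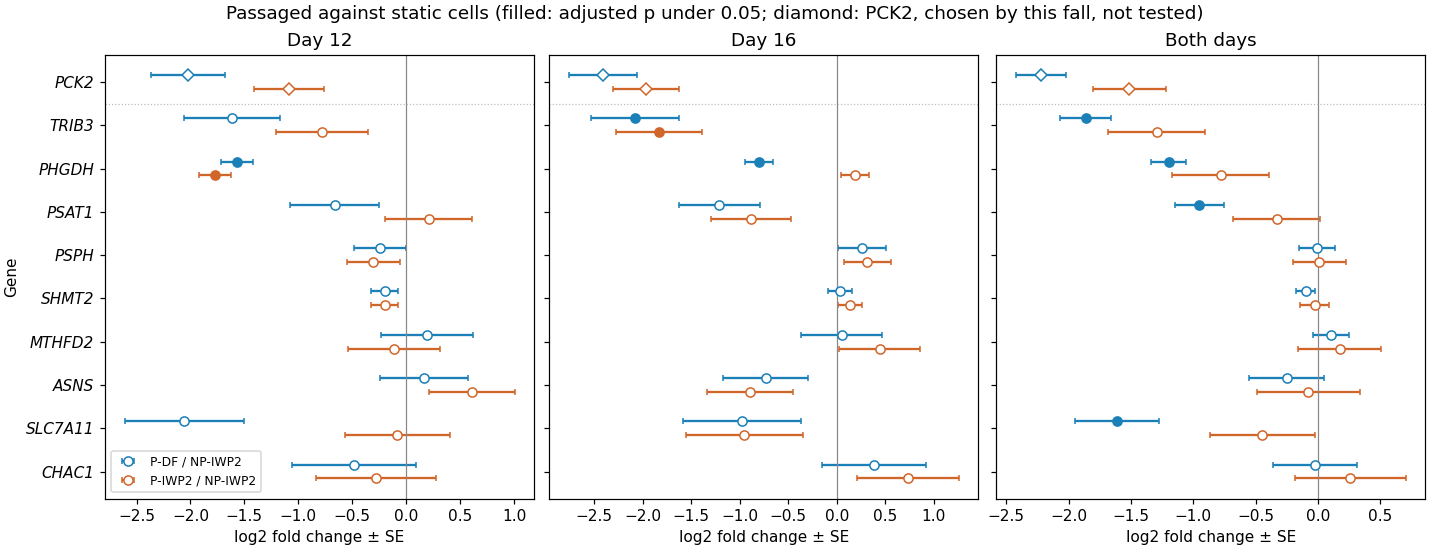
Log2 fold change (point) and its SE (bar) of the 10 genes in P-DF (blue) and P-IWP2 (orange) against NP-IWP2 cells on Day 12, on Day 16 and over both days, with 2 libraries per group and day. Over both days TRIB3, PHGDH, PSAT1 and SLC7A11 passed the test in P-DF cells (filled), while PSPH and SHMT2 lay near 0.

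In P-IWP2 cells, 0 of the 9 genes passed edgeR's test against NP-IWP2 over both days, where 2.14% of all genes were lower. At an unadjusted p under 0.05 there was 1 gene, TRIB3, and DESeq2 called 1. Limma called 0, but here and below it covered only genes with a mean of at least 1 FPKM. This left out TRIB3, SLC7A11, ASNS and CHAC1. TRIB3 was at 0.89 and 0.61 FPKM on Day 12 and at 0.18 and 0.54 FPKM on Day 16 in P-IWP2 cells, below the static libraries of each day. On TMM-scaled counts TRIB3 was the only one of the 9 genes without overlap on both days, which held for 9.85% of all genes. In FPKM, which are not TMM-scaled, SHMT2 did not overlap either. SHMT2 was at 8.18 and 8.36 against 9.01 and 9.8 FPKM in static libraries on Day 12. On Day 16 it was at 7.85 and 8.31 against 8.56 and 9.32 FPKM. The log2 difference of TRIB3 over both days was -1.29 ± 0.39 (adjusted p = 0.16). Without Day 12 P-IWP2 replicate 5, 2 of the 9 genes were lower, where 14.5% of all genes were. These were TRIB3, by -1.48 (adjusted p = 0.023), and SLC7A11, by -1.06 (adjusted p = 0.041). SLC7A11 was at 0.38 FPKM in that library, the highest of the 12, and at 0.1 FPKM in the other Day 12 P-IWP2 library. The Day 12 log2 difference of SLC7A11 was -0.08 with that library and -1.16 without it. For PSAT1 it went from 0.21 to -0.44 when that library was left out, and for MTHFD2 the other way, from -0.12 to 0.38. Over both days PSAT1 differed by -0.33 with that library and by -0.71 without it.

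Day by day the counts were smaller, and the shares of all genes given here are those with all 12 libraries. In P-DF cells, 1 of the 9 genes was lower on Day 12, PHGDH by 1.57 ± 0.15 on the log2 scale (adjusted p = 0.0012), where 3.32% of all genes were lower. On Day 16 there were 2, PHGDH and TRIB3, where 9.86% of all genes were lower. The Day 12 count was 3 without either Day 12 P-IWP2 library, as TRIB3 and SLC7A11 then passed, and 2 without either Day 16 P-IWP2 library. The Day 16 count was 3, with PSAT1, without either Day 12 P-IWP2 library, 1 without NP-IWP2 replicate 1 and 0 without NP-IWP2 replicate 2, P-DF replicate 3 or P-DF replicate 4 of that day. In P-IWP2 cells, PHGDH was the 1 gene lower on Day 12, where 1.33% of all genes were, and TRIB3 the 1 gene lower on Day 16, where 9.95% were. The PHGDH call of Day 12 held when each library was left out in turn, was lost in a model of only the 2 groups compared, and was joined by PSPH without P-IWP2 replicate 6 of that day. The Day 16 call of TRIB3 was lost without Day 16 NP-IWP2 replicate 1, NP-IWP2 replicate 2 or P-IWP2 replicate 5, and it was joined by PSAT1 without either Day 12 P-IWP2 library.

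Between the 2 passaged treatments, 0 of the 10 genes passed edgeR's test over both days, and 0% of 17999 genes did. At an unadjusted p under 0.05 there was 1 of the 10 genes, PCK2, and DESeq2 and limma called 0. PCK2 was 0.70 ± 0.28 higher on the log2 scale in P-IWP2 than in P-DF cells (adjusted p = 0.86). The log2 differences of the 10 genes ran from 0.00 to 1.17, with a median of 0.35. Without Day 12 P-IWP2 replicate 5 they ran from 0.11 to 0.54, with a median of 0.37 and PCK2 at 0.43 (adjusted p = 0.77), and again 0 genes passed.

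PHGDH moved with time in passaged cells. It rose from 3.95 and 3.19 FPKM on Day 12 to 7.67 and 9.66 FPKM on Day 16 in P-IWP2 cells, by 1.70 ± 0.15 on the log2 scale (adjusted p = 0.00049). In P-DF cells it rose by 0.51 ± 0.15 (adjusted p = 0.049), and in NP-IWP2 cells the log2 difference was -0.25 ± 0.14 (adjusted p = 0.37). On Day 16 PHGDH in P-IWP2 cells overlapped with static cells, at a log2 difference of 0.18 ± 0.14 (adjusted p = 0.40), which was -0.11 with total counts. The difference between P-IWP2 and NP-IWP2 cells itself differed between days by 1.95 ± 0.21 (adjusted p = 0.0075). PHGDH was the 1 of the 9 genes that passed this test of interaction, which 1.84% of all genes passed. The interaction was 1.96 (adjusted p = 0.063) without Day 12 NP-IWP2 replicate 1, 1.97 (adjusted p = 0.063) without replicate 2, and 2.00 (adjusted p = 0.00016) without Day 12 P-IWP2 replicate 5. Without Day 12 P-IWP2 replicate 6 the interaction of PHGDH was 1.93, and the set of genes that passed was larger. The 1.84% is the share of all genes with all 12 libraries and is not set against that setting. For P-DF cells 0 of the 9 genes passed, where 0.482% of all genes did. PHGDH had an unadjusted p under 0.05, and DESeq2 and limma called 0. The interaction of PHGDH in P-DF cells was 0.76 ± 0.21 (adjusted p = 0.16), and it passed at 0.76 (adjusted p = 0.026) and 0.77 (adjusted p = 0.026) without Day 12 P-IWP2 replicate 5 and replicate 6.

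From Day 12 to Day 16, 4 of the 10 genes changed in P-IWP2 cells, where 27% of all genes did. PHGDH and MTHFD2 rose, and ASNS and SLC7A11 fell. MTHFD2, the mitochondrial methylenetetrahydrofolate dehydrogenase, went from 1.02 and 2.07 FPKM to 2.42 and 4.63 FPKM, by 1.58 ± 0.43 on the log2 scale (adjusted p = 0.027). ASNS went from 0.37 FPKM in both libraries to 0.14 and 0.05 FPKM, by -1.57 ± 0.43 (adjusted p = 0.028). SLC7A11 fell by 2.24 ± 0.57 on the log2 scale (adjusted p = 0.022), but by 1.15 (adjusted p = 0.17) without Day 12 P-IWP2 replicate 5, which left 3 genes. Only PHGDH passed without Day 16 P-IWP2 replicate 6, 8 of the 10 genes did without Day 12 P-IWP2 replicate 6, and 0 did in a model of only the 2 groups compared.

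In P-DF cells the count with time was 1 of 10, PHGDH, where 13.6% of all genes changed. It was 0 when any 1 of the 8 NP-IWP2 and P-DF libraries was left out, and 2, with MTHFD2, without either Day 12 P-IWP2 library. In NP-IWP2 cells it was 0 of 10 by edgeR and DESeq2, and 0 by limma among the genes it covered, where 1.98% of all genes changed. At an unadjusted p under 0.05 there were 2 genes, MTHFD2 and SLC7A11, and both passed when either Day 12 P-IWP2 library was left out. MTHFD2 was at 1.77 and 1.61 FPKM on Day 12 and at 3.53 and 2.8 FPKM on Day 16 in static cells, without overlap. PCK2 passed in none of the 3 treatments, with a log2 difference of 0.11 ± 0.32 in static cells (adjusted p = 0.89), -0.29 ± 0.36 with P-DF (adjusted p = 0.63) and -0.78 ± 0.34 with P-IWP2 (adjusted p = 0.11). The last of these was -0.25 (adjusted p = 0.64) without Day 12 P-IWP2 replicate 5.

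The mRNA of ATF4 itself was high in all libraries, at 67.9 to 103 FPKM, and did not pass the test. Over both days its log2 difference from NP-IWP2 on TMM-scaled counts was -0.07 ± 0.09 with P-DF (adjusted p = 0.59) and -0.07 ± 0.18 with P-IWP2 (adjusted p = 0.86). In FPKM, which are not TMM-scaled, ATF4 was lower with P-DF without overlap. It was at 73.61 to 88.47 against 93.53 to 102.73 FPKM on Day 12, and at 79.45 to 81.95 against 89.0 to 91.12 FPKM on Day 16. With P-IWP2 it overlapped with static cells on Day 12 but not on Day 16. ATF4 is regulated largely through translation, which these data do not measure. DDIT3, which encodes the stress factor CHOP, differed by 0.24 ± 0.18 in P-DF cells (adjusted p = 0.33). ATF3 differed by 0.01 ± 0.19 (adjusted p = 0.96), and CEBPG, a partner of ATF4 in DNA binding, by 0.07 ± 0.07 (adjusted p = 0.49), and both had the opposite sign with total counts. Of 12 regulators of this axis that were tested, 2 were lower in P-DF cells and 0 higher, with a median log2 difference of -0.04, where 19.8% of all genes were lower and 14.3% higher. The share of regulators that were lower was thus close to that of all genes. The 2 were PPP1R15B, a subunit of the phosphatase that resets the pathway, by -0.42 ± 0.12 (adjusted p = 0.024), and EIF2AK2, a kinase that starts it in response to double-stranded RNA, by -0.28 ± 0.10 (adjusted p = 0.0496).

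Other ATF4 targets were counted by function, beside the same 19.8% lower and 14.3% higher of all genes. Of 19 genes of amino acid transport and metabolism tested, 7 were lower in P-DF cells over both days and 0 higher by edgeR, with a median log2 difference of -0.28. SLC7A3, a transporter of cationic amino acids, differed by -1.53 ± 0.30 (adjusted p = 0.0035), and DDIT4, an inhibitor of mTORC1, by -1.35 ± 0.22 (adjusted p = 0.0014). SLC7A5, the large neutral amino acid transporter, differed by -1.03 ± 0.21 (adjusted p = 0.0044), and ALDH18A1, an enzyme of proline synthesis, by -0.97 ± 0.18 (adjusted p = 0.0028). SLC7A3 was at 2.42 to 2.79 FPKM in static and 0.74 to 0.77 FPKM in P-DF libraries on Day 12. DDIT4 was at 11.9 FPKM in both static and at 4.22 to 5.22 FPKM in P-DF libraries on Day 16.

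Of 12 tRNA synthetase genes, which charge tRNAs with amino acids, 0 were lower in P-DF cells and 3 higher. NARS1, the asparagine enzyme, rose by 0.47 ± 0.09 on the log2 scale (adjusted p = 0.0028), and EPRS1 and LARS1 by 0.24 ± 0.07 and 0.23 ± 0.06. The direction in this list depended on the scaling, since with total counts 1 of the 12 genes was higher and 2 were lower. In P-IWP2 cells, 1 of the 19 transport and metabolism genes was lower, SLC7A3 by -1.85 ± 0.25 (adjusted p = 0.012), and 0 of the 12 synthetase genes passed. Without Day 12 P-IWP2 replicate 5, 2 of the 19 were lower and 1 of the 12 was higher, where 14.5% of all genes were lower and 10.3% higher, so neither count stood above that of all genes.

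**Figure D3:**
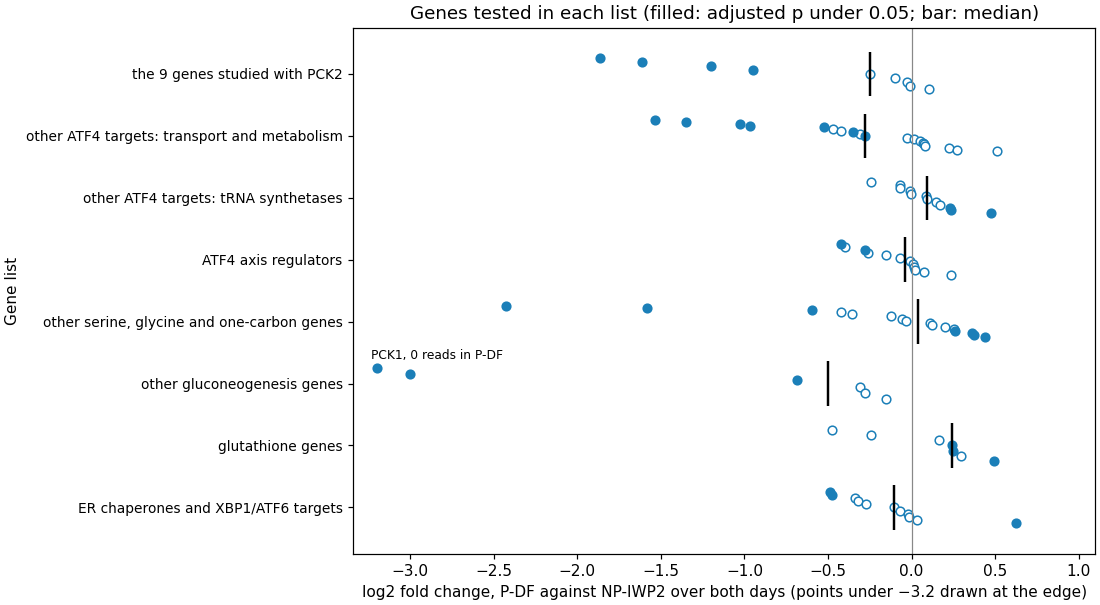
Log2 fold change between P-DF and NP-IWP2 cells over both days for each gene tested (points, filled where the adjusted p was under 0.05) in 8 lists, with the median of each list (bar). Falls of 1 unit and more stood in the transport and metabolism targets, the one-carbon genes and the gluconeogenesis genes as well as in the 9 genes, whereas the tRNA synthetase genes lay close to 0.

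Among 16 other genes of serine, glycine and one-carbon metabolism, 3 were lower and 4 higher in P-DF cells, with a median log2 difference of 0.04. The lower share was close to the 19.8% of all genes, and the higher share moved with the scaling. GLDC, the decarboxylase of the glycine cleavage system, differed by -2.42 ± 0.61 (adjusted p = 0.013), at 0.01 to 0.7 FPKM. ALDH1L1, a cytosolic folate enzyme, differed by -1.58 ± 0.26 (adjusted p = 0.0017), and SHMT1, the cytosolic counterpart of SHMT2, by -0.60 ± 0.15 (adjusted p = 0.013). The largest rise was that of MTHFD2L, by 0.44 ± 0.10 (adjusted p = 0.0067). With total counts 0 of the 16 genes were higher and 4 lower.

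PCK1, the cytosolic counterpart of PCK2, was counted at 16 to 35 reads in the 4 NP-IWP2 libraries and at 0 reads in all 8 passaged libraries, where a count of 0 allows up to 3 reads. Of 6 other gluconeogenesis genes tested, PCK1 included, 3 were lower in P-DF cells and 0 higher. PCK1 passed the filter only through the static libraries, so its direction was fixed in advance and its call is not a test. FBP1, the fructose bisphosphatase, differed by -3.00 ± 0.57 (adjusted p = 0.0034) and PC, the pyruvate carboxylase, by -0.69 ± 0.16 (adjusted p = 0.0083). Of 7 glutathione genes, 0 were lower and 3 higher. GCLC, the rate-limiting enzyme of glutathione synthesis, rose by 0.49 ± 0.09 (adjusted p = 0.0023), and it was the 1 gene higher with total counts. Of 11 ER chaperones and targets of XBP1 and ATF6, 2 were lower, PDIA4 and EDEM1, and 1 was higher, DNAJB9 by 0.63 ± 0.08 (adjusted p = 0.00046), counts near the 19.8% and 14.3% of all genes.

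Markers of other cell types moved with PCK2. The 13 hepatic markers, with AFP, APOA2 and AHSG among them, summed to 491 to 695 FPKM on Day 12 and 864 to 1034 FPKM on Day 16 in NP-IWP2 cells. In the passaged libraries they summed to 5.96 to 20.1 FPKM, and APOC3 was at 0 in all 4 passaged groups. All 13 were lower in P-DF cells over both days. The 8 fibroblast markers summed to 795 to 1407 FPKM in static cells and to 24.3 to 44.6 FPKM in the passaged libraries, apart from Day 12 P-IWP2 replicate 5 at 760 FPKM. The 8 epicardial markers summed to 52.8 to 111 FPKM in static cells and 4.85 to 18.9 FPKM in passaged libraries, again apart from that library at 152 FPKM. Hepatic markers in it summed to 8.45 FPKM, as low as in the other passaged libraries, while its PCK2 was at 1.42 FPKM. The epicardial sums did not stand for the whole list. On Day 12 UPK1B, ALDH1A2 and LRRN4 differed by 3.71 ± 1.93, 1.30 ± 0.71 and 0.38 ± 0.26 on the log2 scale in P-DF cells. They did not pass the test. The rest of the list had log2 differences below 0 on Day 12. Of these, WT1, TBX18 and TCF21 did not pass edgeR's test either (adjusted p = 0.069, 0.063 and 0.17). Over both days ALDH1A2 and LRRN4 did not pass either in P-DF cells (adjusted p = 0.12 and 0.33). The 8 endothelial markers summed to 185 to 202 FPKM in static and 161 to 224 FPKM in P-DF cells on Day 12, but to 50.02 to 50.18 and 13.45 to 15.04 FPKM on Day 16. The Day 12 sums did not stand for the whole list, since KDR differed by 0.29 ± 0.93 on the log2 scale on that day while TEK, a receptor of endothelial cells, went from 10.87 and 11.48 FPKM to 0.01 and 0.1 FPKM. Over both days 7 of the 8 endothelial markers were lower in P-DF cells. Cardiomyocyte markers were present in every library, at 3783 to 6141 FPKM in static and 6114 to 10035 FPKM in P-DF cells, with 9 of 11 higher over both days. On Day 12 alone no marker of the 11 passed. MYH6 went the other way on Day 16, by -2.02 ± 0.46 on the log2 scale (adjusted p = 0.020). Of 10 cell cycle genes 4 were lower in P-DF cells over both days and 0 higher. Beside each of these counts over both days, 19.8% of all genes were lower and 14.3% higher. Markers at or near 0 FPKM in P-DF libraries, such as APOC3 and AHSG, passed the filter only through static libraries. Their direction was fixed in advance, so the counts that hold them are a description. The part of these cells in the levels of PCK2 and the other genes was not tested.

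**Figure D4:**
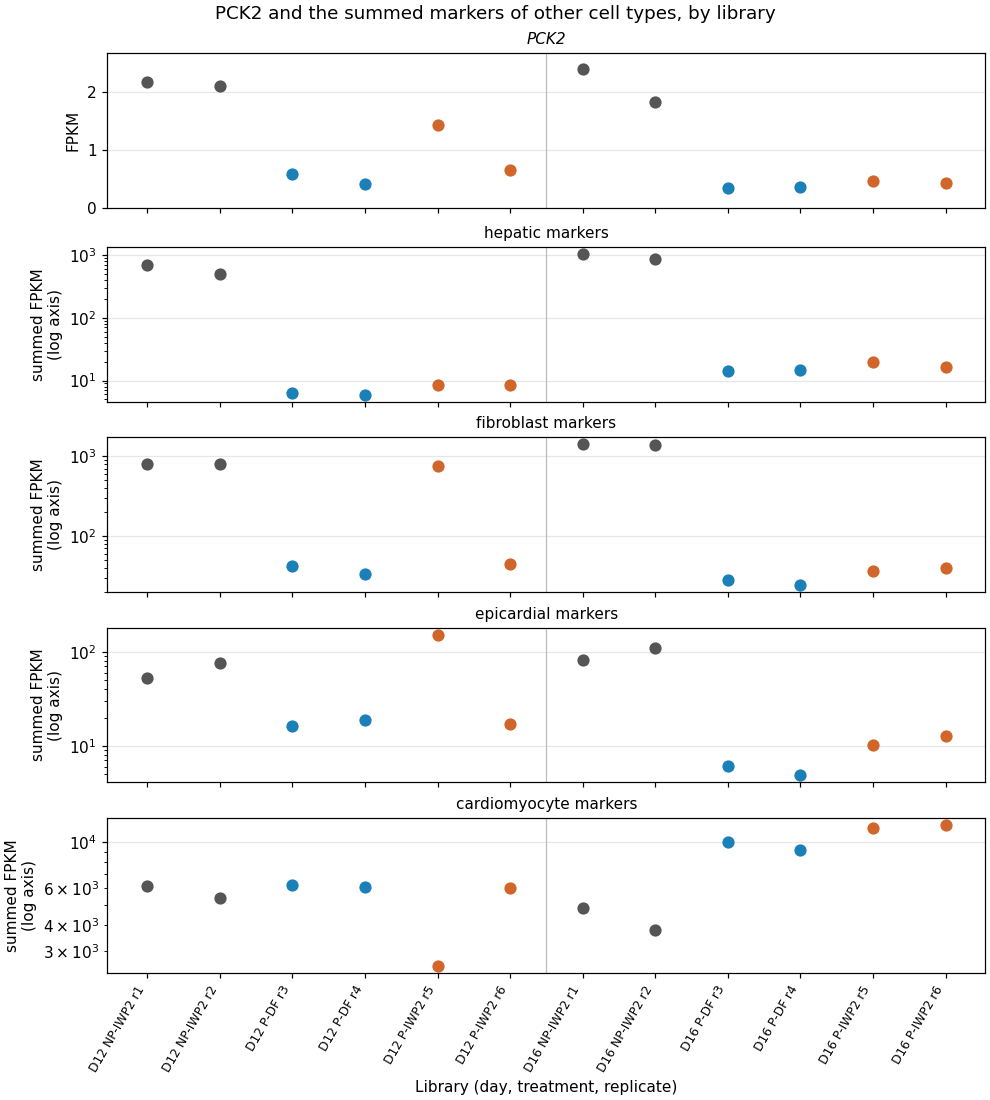
PCK2 in FPKM (top) and the summed FPKM of hepatic, fibroblast, epicardial and cardiomyocyte markers (log axes) in the 12 libraries, for NP-IWP2 (grey), P-DF (blue) and P-IWP2 (orange). Day 12 P-IWP2 replicate 5 (r5) had PCK2 at 1.42 FPKM with 760 FPKM of fibroblast and 8.45 FPKM of hepatic markers.

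The genes most like PCK2 were ranked by Pearson's r of log2(FPKM + 1) over the 12 libraries, which share treatment and day and so separate mainly into static and passaged ones. They were VTN (r = 0.989), SH3TC1 (r = 0.988), SLC9A3R1 (r = 0.986), FSHR (r = 0.985) and C17orf107 (r = 0.985). VTN, which encodes vitronectin, was at 20.4 to 39.6 FPKM in static libraries, at 17.0 FPKM in Day 12 P-IWP2 replicate 5, and at 0.70 to 2.38 FPKM in the other passaged libraries. SLC9A3R1, a scaffold under the apical membrane of epithelia, was at 57.4 to 71.1 FPKM in static libraries, 38.3 FPKM in that library and 1.78 to 6.65 FPKM in the other passaged libraries. Among the 9 genes, TRIB3 was the most like PCK2 (r = 0.954, rank 121 of 19504 genes), followed by SHMT2 (r = 0.810, rank 1793) and PSAT1 (r = 0.802, rank 1909). The FPKM behind r are not TMM-scaled, and SHMT2 was lower in passaged libraries without overlap only in FPKM. MTHFD2 (r = -0.210) and CHAC1 (r = -0.136) were the least like it.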

How the data were processed

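RNA-seq was performed on 12 libraries. The authors trimmed reads with cutadapt 1.9.1, aligned them to hg38 with HISAT2 2.0.1 and counted them per gene with HTSeq 0.6.1. The deposited counts were not normalized. The deposited FPKM equal count per exon length and library total within 0.006. The labels name a SMRTbell library kit; strand of counting and annotation version are not given in the sources used here, so reads of overlapping genes cannot be told apart.

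The main test was run in edgeR 4.0.16 under R 4.3.3 (TMM, filterByExpr, quasi-likelihood test, Benjamini-Hochberg over all genes tested, threshold 0.05). All 10 genes passed the filter, SLC7A11 in the P-DF model over both days only through the static libraries. A model of 6 groups gave comparisons within a day, with time and of interactions, and a model with day as a term those over both days. SE is the log2 difference divided by the root of F. Alternatives were DESeq2 1.42.0, total counts, no filter, limma 3.58.1 on log2(FPKM + 1) for genes with a mean FPKM of at least 1, the groups compared only, a replicate block, and each library left out in turn. The fits were tested on simulated data.

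Genes and lists were chosen with earlier results of these data known. Beyond the 10 genes, the text names up to 4 genes per list with the largest called difference over both days, ATF4, DDIT3, ATF3, CEBPG, PCK1 and the 5 genes most like PCK2. NRL, APOC3, KDR, TEK, UPK1B, ALDH1A2, LRRN4 and MYH6 were named after their values were seen. Summaries used numpy 2.4.6 and pandas 2.3.3 in Python 3.11.15, and plots matplotlib 3.10.9.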

Additional observations from a re-analysis of the deposited data

Results flagged for a closer look

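PHGDH drew attention because its difference between P-IWP2 and NP-IWP2 cells was not the same on the 2 days, by 1.95 on the log2 scale (adjusted p = 0.0075 in edgeR's test of the interaction). From Day 12 to Day 16 the log2 difference was -0.25 in static cells, 0.51 with P-DF and 1.70 with P-IWP2, and each static library was lower on Day 16 while each passaged library was higher. For P-DF cells the same test gave 0.76 (adjusted p = 0.16).

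PSPH, the phosphatase that completes serine synthesis, had the same arrangement on the TMM scale. Its log2 difference with time was -0.27 in static cells, 0.24 with P-DF and 0.35 with P-IWP2, with each library of the static group lower and each passaged library higher on Day 16. Without Day 12 P-IWP2 replicate 5 the difference with P-IWP2 was 0.03 (adjusted p = 0.93). In FPKM, which are not TMM-scaled, the passaged libraries of the 2 days overlapped. The test of the difference did not pass with P-DF (adjusted p = 0.60) or with P-IWP2 (adjusted p = 0.33).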

How the results depend on the processing

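The 4 calls in P-DF cells over both days had the same direction and passed in all edgeR and DESeq2 alternatives. Over all alternatives the log2 differences were -2.03 to -1.79 for TRIB3, -1.35 to -1.10 for PHGDH, -1.16 to -0.79 for PSAT1 and -1.84 to -1.39 for SLC7A11. Limma covered 5 of the 9 genes and called PHGDH, PSAT1 and SHMT2. Other counts moved. With DESeq2 they were 2 (Day 12) and 3 (Day 16) with P-DF, 1 with P-IWP2 over both days, and 3 with time in P-IWP2 cells. Without the filter they were 3 in P-DF cells on Day 12, 2 in P-IWP2 cells on Day 16, 1 in P-IWP2 cells over both days, 2 for the interaction of P-IWP2 and day, and with time 1 in static cells and 2 with P-DF. With limma they were 1 with P-DF and 0 with P-IWP2 on Day 16, and with time 0 with P-DF and 2 with P-IWP2. With only the groups compared they were 4 with P-DF and 0 with P-IWP2 on Day 12, and with time 3 in static cells, 2 with P-DF and 0 with P-IWP2. With total counts the count with time in P-DF cells was 0; this scaling moved the median of all genes to between -0.49 and 0.03. The causes were not tested.

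With each library left out in turn, the counts against NP-IWP2 ran from 1 to 3 (Day 12) and 0 to 3 (Day 16) in P-DF, from 1 to 2 (Day 12), 0 to 2 (Day 16) and 0 to 2 (both days) in P-IWP2 cells, and stayed at 4 in P-DF cells over both days and at 0 between the passaged treatments. With time they ran from 0 to 2 in static cells, 0 to 2 with P-DF and 1 to 8 with P-IWP2, and for the interactions from 0 to 1 (P-DF) and 0 to 4 (P-IWP2). A group left with 1 library is assumed to vary like the others. The share of all genes with a library left out is given only for P-IWP2 against NP-IWP2 over both days. The other counts are not set against such a share. Of 1850 values of single genes under all alternatives, 51 lost and 55 gained a call and 0 changed sign with a call. This tally holds PCK2 also in the comparisons of passaged with static cells, where its calls are not a test.

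With the replicate number as a replicate block, the counts with time were 0 in static cells, 1 with P-DF (MTHFD2) and 4 with P-IWP2. Deviations of same-numbered libraries on the 2 days correlated at 0.0754, -0.0015 and -0.0310 in the 3 treatments. With 2 libraries per group this cannot decide whether the numbers pair the libraries. With 2 libraries per group and at most 57 reads on SLC7A11, ASNS and CHAC1, smaller differences of these genes were not detectable.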
